A study of Mus musculus with 36 samples.

Results

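Population C was compared with population A, 2 of the 6 sorted cell populations of this study of the mouse brain. The comparison uses the 6 libraries whose titles name population C and the 6 that name population A, 12 of 36 RNA-seq libraries in all. Both populations were taken from olfactory bulb, cortex and brainstem, with 2 libraries for each of the 3 regions. Per the labels, every library came from C57/Bl6 mice and from cells described as astrocytes, with no genotype, treatment or age given. The labels do not give the antigens that define A and C, the number of animals pooled, or whether paired libraries represent different mice. The p-values below thus reflect variation among libraries, part or all of which may be technical.

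Astrocytes take up the transmitters glutamate and GABA, buffer potassium and water at endfeet on blood vessels, are joined by gap junctions, supply lactate and lipids, and secrete proteins that act on synapses. Their levels of these genes differ between brain regions. Region was therefore a block in each fit, so that C was set against A within the same region.

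The data gave 1 gene that differed past the threshold, Npy, which was lower in C after quantile normalization. A broad set of astrocyte genes lay higher in C without passing. Marker lists of choroid plexus and ependymal, meningeal, mural and microglial cells also lay higher in C without passing. Their medians after quantile normalization were 0.81, 0.74, 0.62 and 0.44, beside 0.64 for astrocyte markers, so the lean was not particular to astrocyte genes. The 250 bases before the RefSeq start are shown for 3 genes. Npy is the gene that passed. Hspb8 and Mlc1, which did not pass, lay higher in all 6 C libraries than in any A library on both scales used. Over all genes 2.15% did so as deposited and 0.21% after quantile normalization, Tex264 among them on both scales. The sequences are from RefSeq on GRCm38.p6, at chr6:49822460-49822709 on the plus strand for Npy, chr5:116422865-116423114 on the minus strand for Hspb8, and chr15:88978554-88978803 on the minus strand for Mlc1. The Mlc1 window lies inside the longer GENCODE gene that was tested, which spans 88955884 to 88979007, so it precedes the RefSeq start but not the outermost GENCODE start. The sequences are written 5′ to 3′ on the strand of the gene, with matches to searched motifs in capitals.
Npy: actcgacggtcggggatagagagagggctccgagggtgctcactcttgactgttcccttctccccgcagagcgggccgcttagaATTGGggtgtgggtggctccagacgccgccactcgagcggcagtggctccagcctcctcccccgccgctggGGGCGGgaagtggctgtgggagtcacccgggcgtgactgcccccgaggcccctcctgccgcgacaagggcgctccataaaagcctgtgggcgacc
Hspb8: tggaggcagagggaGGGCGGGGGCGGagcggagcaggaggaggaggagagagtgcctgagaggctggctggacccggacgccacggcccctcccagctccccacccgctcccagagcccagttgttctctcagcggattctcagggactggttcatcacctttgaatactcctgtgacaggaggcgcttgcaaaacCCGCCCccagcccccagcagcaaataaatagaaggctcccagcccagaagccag
Mlc1: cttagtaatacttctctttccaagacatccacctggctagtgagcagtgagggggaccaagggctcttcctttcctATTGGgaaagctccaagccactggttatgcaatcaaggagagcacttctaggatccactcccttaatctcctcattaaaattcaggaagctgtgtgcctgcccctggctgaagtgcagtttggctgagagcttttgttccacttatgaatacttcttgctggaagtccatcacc

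The motifs searched on both strands were the TATA box TATAAA, the CCAAT box CCAAT, the GC box GGGCGG, the heat shock element core GAANNTTC and the palindromic nuclear factor I site. The capitals of the Npy window are 1 CCAAT box on the reverse strand, starting 166 bases before the gene, and 1 GC box, starting 95 bases before it. The Hspb8 window holds 3 GC boxes, of which 2 stand side by side. The Mlc1 window holds 1 CCAAT box on the reverse strand. Over the 32851 RefSeq windows of this length, 33.8% hold a CCAAT box, 32.7% a GC box, 12.4% a TATA box, 6.69% a heat shock element core and 0.0365% the nuclear factor I palindrome. The matches describe these letters and do not mark bound sites.

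The label astrocyte was checked against marker genes. All 26 astrocyte markers passed the filter on low values, which required 1 FPKM (fragments per kilobase of transcript, scaled to 1000000 mapped fragments) or more in at least 2 of the 12 libraries. Their summed level ran from 1250 to 4570 FPKM in A and from 4030 to 9550 in C. In the Neg population, which the labels do not explain, it ran from 270 to 1230. Markers of other cells were present in both populations. Mature oligodendrocyte markers summed to between 1490 and 13900 FPKM in A and between 843 and 8830 in C. In the brainstem A libraries they summed to 8016 and 13920 FPKM, above the astrocyte markers at 4568 and 2900. The same held in the second cortex A library, 2572 against 1251, and in the second brainstem C library, 8828 against 7012. In the remaining libraries of A and C the astrocyte sum was the higher. Neuron markers summed to between 174 and 672 FPKM in A and between 146 and 618 in C. In bulk samples, fewer cells of a type and less RNA per cell cannot be told apart.

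**Figure D1:**
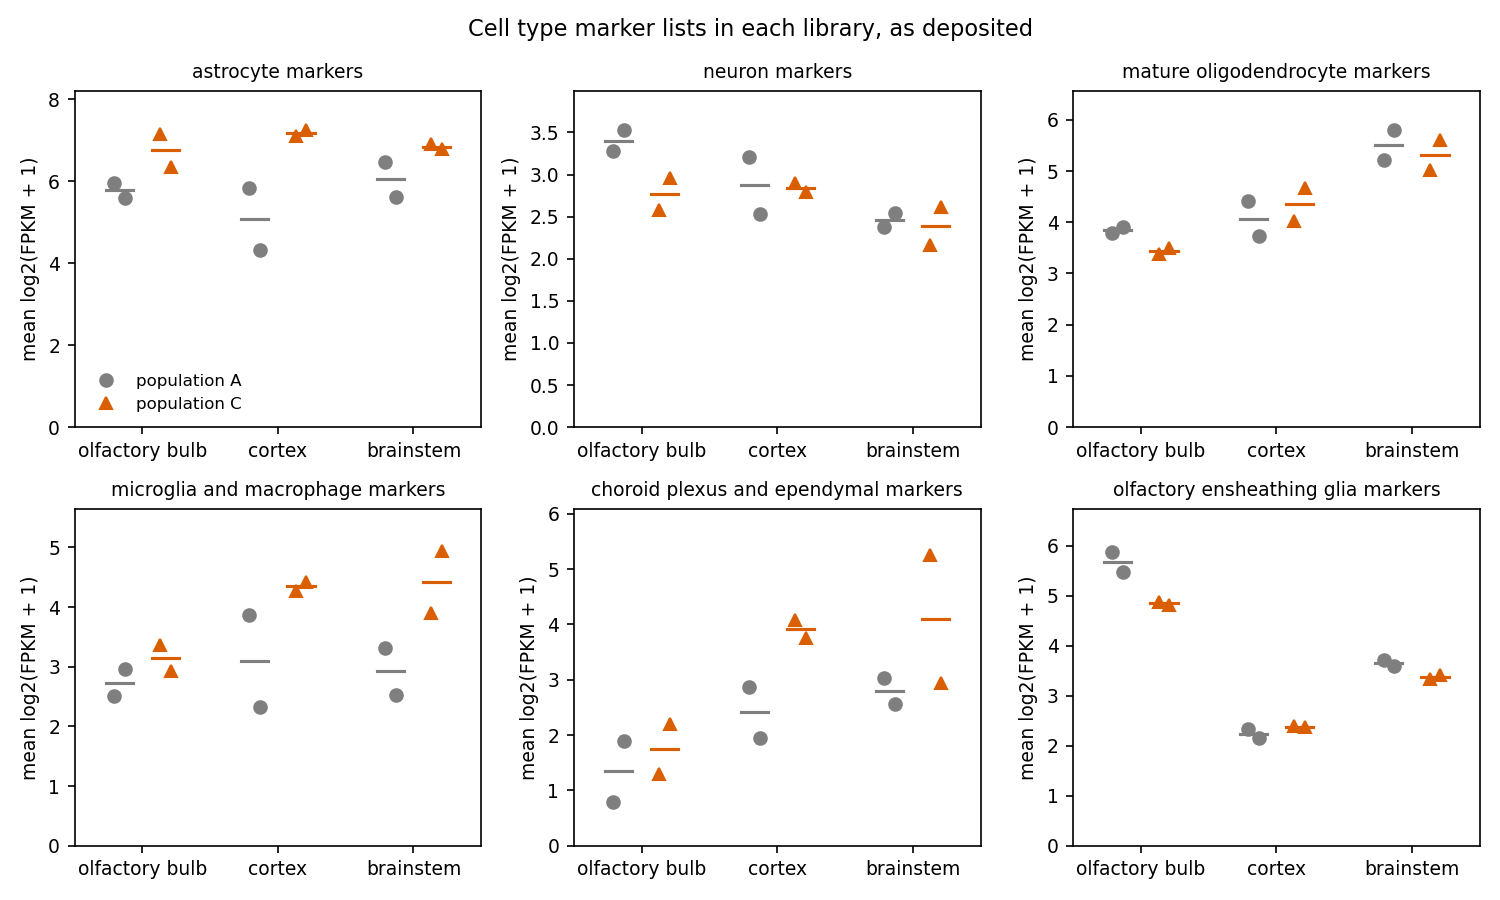
Mean log2(FPKM + 1) over 6 cell type marker lists (y axis) in each library of population A (circles) and population C (triangles), by region (x axis); each point is 1 library and each bar the mean of 2. For astrocyte markers both C libraries lie above both A libraries in every region, and the lowest point is the second cortex A library at 4.32.

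The libraries themselves were not alike in the 2 populations. Genes at 1 FPKM or more numbered 4356 to 9447 in A and 8765 to 10043 in C, a mean difference of 1557 (exact permutation test within regions, two-sided p = 0.0741). Relative depth, the ratio of deposited coverage to FPKM, ran from 1.53 to 2.26 in A and from 1.93 to 2.36 in C, a mean difference of 0.388 (exact permutation test, two-sided p = 0.00926, the smallest that 216 arrangements allow). The estimated share of fragments on nuclear transcripts ran from 11.6% to 36.2% in A and from 26.9% to 45.3% in C (exact permutation test, two-sided p = 0.0556). The second cortex A library was lowest in each of these measures, with 4356 genes, and the second brainstem A library was the next lowest in genes, with 6831. These 2 libraries carry title numbers of another series than the other 10, and the labels do not say what the numbers mark. Since no C library carries such a number, the number series and the population can be compared only within A or with these 2 left out.

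**Figure D2:**
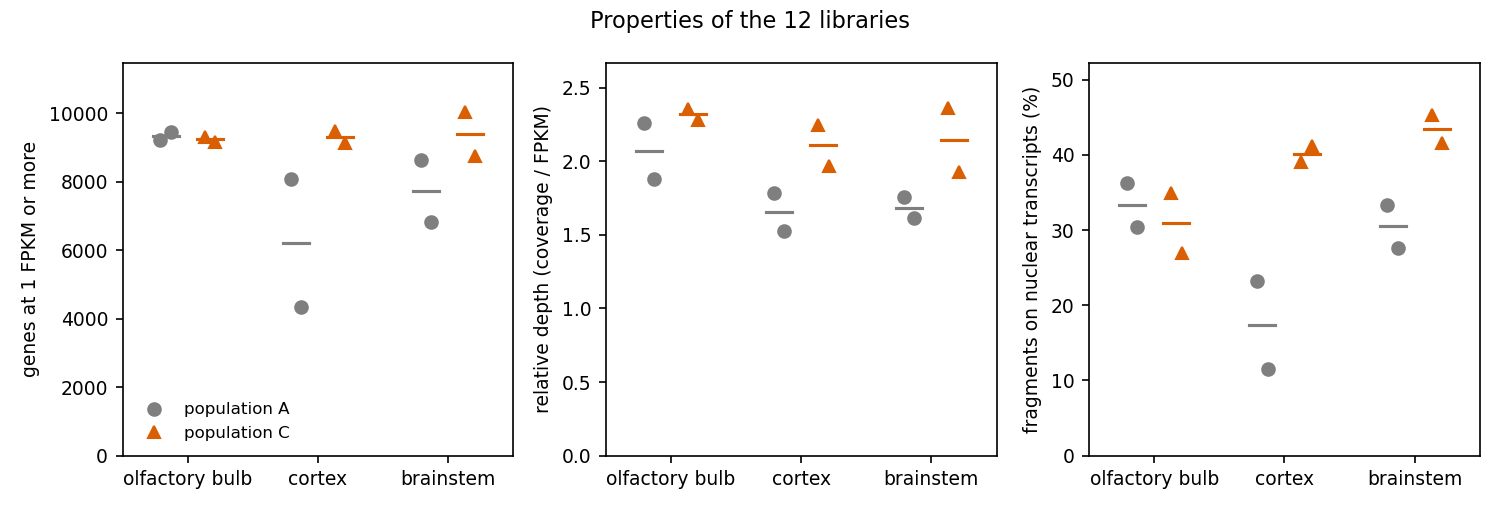
Number of genes at 1 FPKM or more, relative depth and percent of fragments on nuclear transcripts (y axes) in each library, by region (x axis), for A (circles) and C (triangles); bars are means of 2 libraries. Both cortex A libraries lie below both cortex C libraries in all 3 panels, and the second cortex A library has 4356 genes.

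Over all genes, differences leaned toward C as deposited. Among 11880 genes tested with limma on log2(FPKM + 1), the median difference, C minus A, was 0.41 and 84% of genes were higher in C. After quantile normalization, which gives the 12 libraries the same distribution of values, the median was 0.03 and 53.3% were higher. By region, the median as deposited was 0.05 in the olfactory bulb, 0.79 in the cortex and 0.40 in the brainstem. Changes as deposited are read below against the overall shift of 0.41. This median, and the shares over all genes given below, include genes of low level, whose differences this scale understates. No set of genes matched for level was used.

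**Figure D3:**
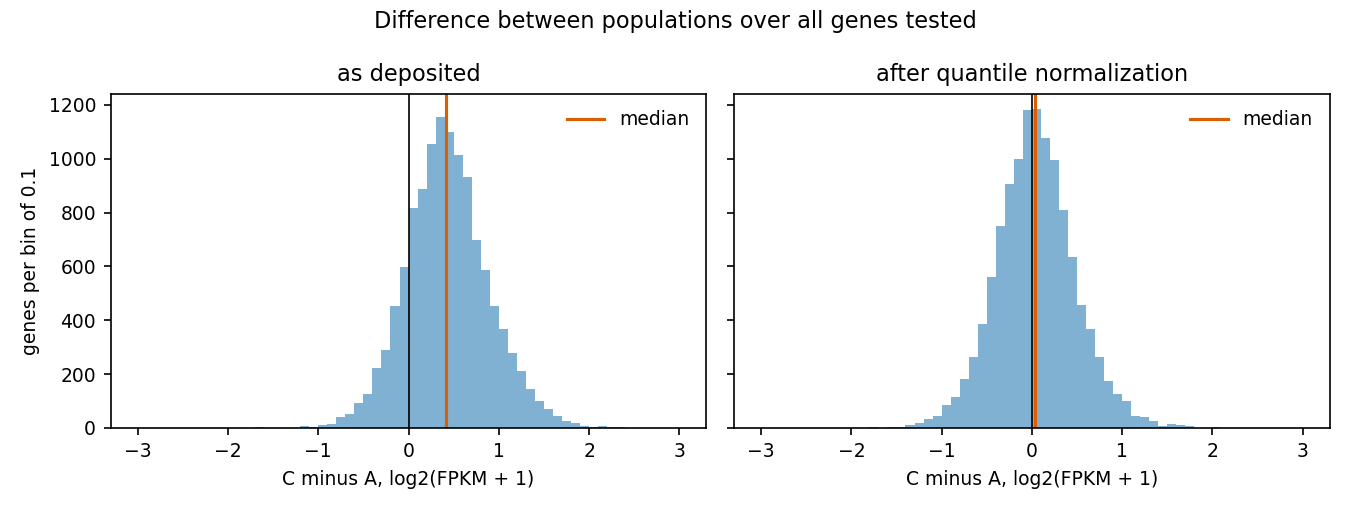
Histograms of the difference between C and A on the log2(FPKM + 1) scale (x axis) over 11880 genes, in bins of 0.1 (y axis, number of genes), as deposited and after quantile normalization, with values beyond 3 drawn in the outer bins. The orange line marks the median, 0.41 as deposited and 0.03 after quantile normalization.

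At an adjusted p under 0.05 by limma, 0 of 11880 genes (0%) passed as deposited, and the smallest adjusted p was 0.112. At an unadjusted p under 0.05 the count was 2626 higher in C (22.1%) and 53 lower (0.446%). The lower count was 96 without the second cortex A library, 28 without the first olfactory bulb C library and 150 without the second A libraries of cortex and brainstem. After quantile normalization 1 gene passed, Npy, lower in C (0.00842%), with 753 genes higher (6.34%) and 523 lower (4.4%) at an unadjusted p under 0.05. A fit that weights each library by its agreement with the others gave 414 genes higher (3.48%) and 7 lower (0.0589%) as deposited, and Npy alone after quantile normalization. The lowest of those weights was 0.219, for the second cortex A library, and the highest was 5.33, for the first cortex A library. Rescaling each library to a sum of 1000000 gave 0 calls, with 732 genes higher (6.16%) and 358 lower (3.01%) at an unadjusted p under 0.05. All 6 C libraries lay above all 6 A libraries for 256 genes as deposited (2.15%) and below for 0. After quantile normalization these counts were 25 (0.21%) and 8 (0.0673%).

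Npy encodes neuropeptide Y, a peptide transmitter of many inhibitory neurons that is also a marker of olfactory ensheathing glia. The gene lies at chromosome 6, 49822710 to 49829507 (GRCm38, plus strand, protein coding). In the olfactory bulb Npy was at 396 and 375 FPKM in the A libraries and at 168 and 126 in the C libraries. In the brainstem it was at 46.3 and 25.6 FPKM in A and at 13.6 and 8.16 in C. In the cortex it was at 3.94 and 3.46 FPKM in A and at 0.453 and 0.511 in C. Both C libraries lay below both A libraries in each region, while levels between regions differed far more than levels between populations. Genes whose C libraries lay below the A libraries in all 3 regions made up 0.126% of those tested as deposited and 1.19% after quantile normalization.

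The Npy difference, C minus A on the log2(FPKM + 1) scale, was -1.56 ± 0.27 (SE) as deposited, with a limma adjusted p of 0.112. After quantile normalization it was -2.15 ± 0.23 (SE), with a limma adjusted p of 0.00191. Without the second A libraries of cortex and brainstem the quantile value was -2.14 (limma adjusted p = 0.00208). The call was lost in a fit over all 36 libraries, where the difference was -2.12 (limma adjusted p = 1.00), and without the region block (limma adjusted p = 0.718). Across the other populations Npy ranged from 0 to 556 FPKM in B and from 0 to 440 in D, so the A and C values lay within the range of other populations.

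Among the other 7 olfactory ensheathing glia markers, differences as deposited ran from -0.99 to 0.46, and none passed. With Npy, 4 of the 8 were negative and 2 had an unadjusted p under 0.05 downward, with a median of -0.03 against 0.41 over all genes. After quantile normalization 7 of the 8 were negative, with a median of -0.45 against 0.03 over all genes. On that scale 3 of the 8, Npy and Frzb among them, had an unadjusted p under 0.05 downward, where 4.4% of all genes did. The 7 markers other than Npy ran from -1.39 to 0.39 there. Frzb, a secreted inhibitor of Wnt signalling, was at 32.3 and 27.6 FPKM in the olfactory bulb A libraries and at 14.4 and 14.4 in the C libraries, and its overall difference was -0.99 ± 0.29 (SE, limma adjusted p = 0.115) as deposited and -1.39 ± 0.32 after quantile normalization (limma adjusted p = 0.291). Fabp7, a fatty acid binding protein of glia, differed by 0.06 ± 0.41 and -0.49 ± 0.29. Ngfr, a neurotrophin receptor, differed by 0.46 ± 0.29 and 0.39 ± 0.27. Sox10, a transcription factor of ensheathing glia and oligodendrocytes, differed by 0.15 ± 0.46 and -0.42 ± 0.36. The mean of the list in the olfactory bulb was 5.87 and 5.47 in A and 4.88 and 4.82 in C on the log2(FPKM + 1) scale. The part of these cells and of neurons in the Npy difference was not tested.

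Among genes that lay higher in C, Hspb8 and Mlc1 are described first. Their C libraries lay wholly above the A libraries on both scales, as did those of Tex264. Over all genes 2.15% did so as deposited and 0.21% after quantile normalization. Hspb8, a small heat shock protein, was at 0.997 and 2.65 FPKM in the olfactory bulb A libraries and at 8.02 and 3.95 in the C libraries. In the cortex Hspb8 was at 2.47 FPKM and listed at 0 in A, and at 16.5 and 12.3 in C. In the brainstem it was at 2.94 and 1.04 FPKM in A and at 14.99 and 7.79 in C. All 6 C libraries lay above all 6 A libraries. The difference was 2.14 ± 0.40 (SE) as deposited and 1.79 ± 0.37 after quantile normalization, with limma adjusted p-values of 0.112 and 0.291.

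Mlc1 encodes a membrane protein of astrocyte endfeet. It was at 23.3 to 28.0 FPKM in the olfactory bulb A libraries and at 88.3 and 37.9 in C. In the cortex it was at 22.2 and 5.13 FPKM in A and at 88.6 and 66.8 in C, and in the brainstem at 37.7 and 9.35 in A and at 69.9 and 53.4 in C. The C libraries lay above every A library, by a small margin between the lowest C value, 37.9, and the highest A value, 37.7. The difference was 1.83 ± 0.43 (SE) as deposited and 1.23 ± 0.31 after quantile normalization (limma adjusted p = 0.112 and 0.291). In the other populations Mlc1 had a median of 2.72 FPKM in Neg, 40.3 in B, 14.5 in D and 1.95 in E, against 22.7 in A and 68.4 in C.

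**Figure D4:**
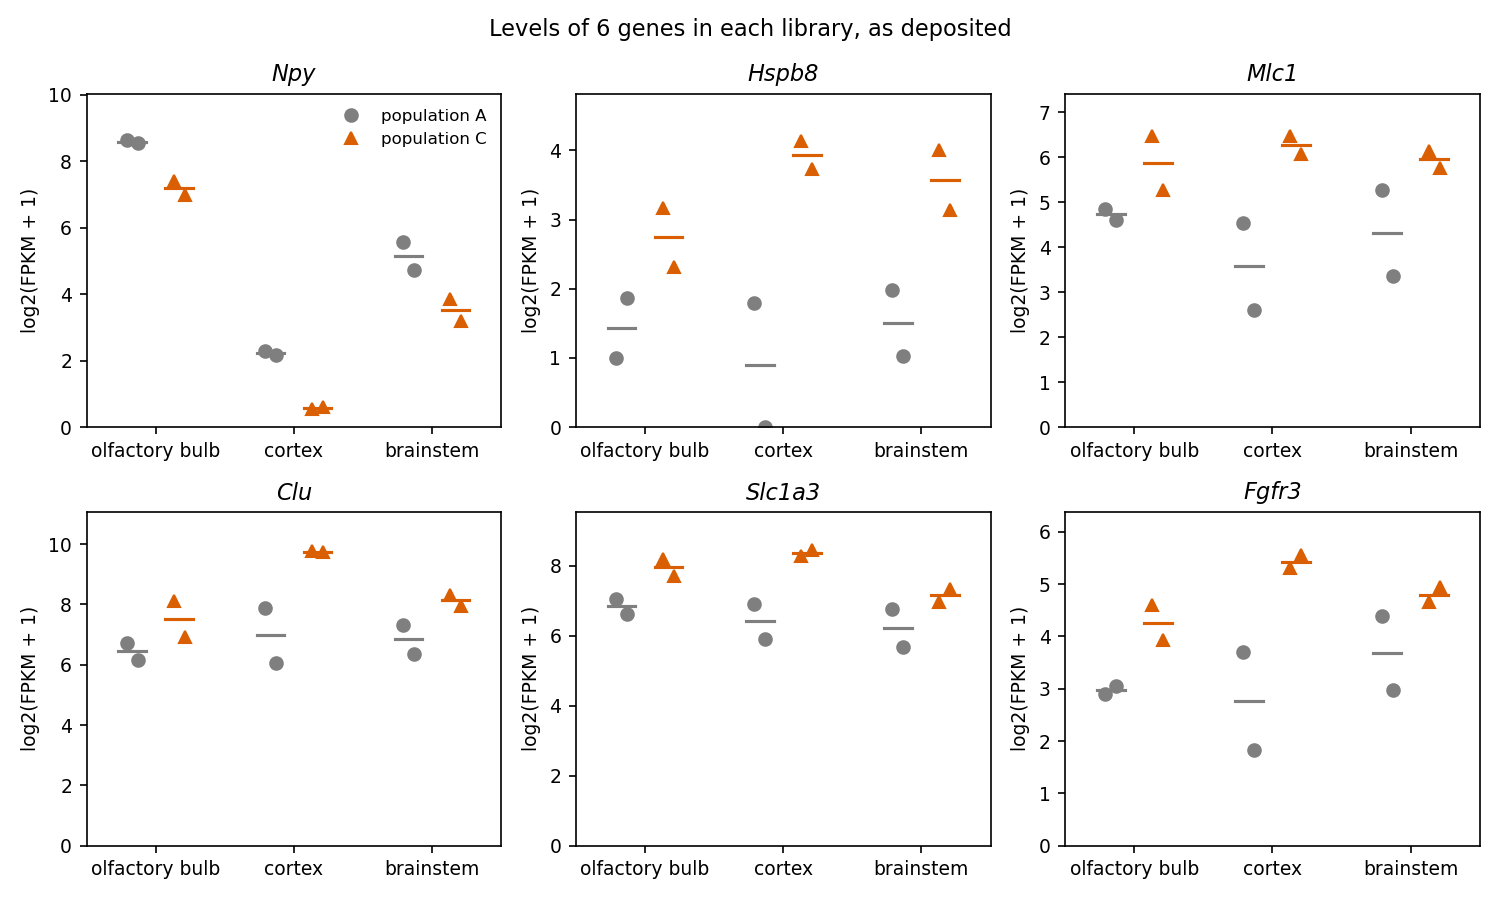
Levels on the log2(FPKM + 1) scale (y axis) of 6 genes in each library as deposited, by region (x axis), for A (circles) and C (triangles); bars are means of 2 libraries. Both C libraries lie below both A libraries in every region for Npy and above them in every region for Hspb8, Mlc1, Clu, Slc1a3 and Fgfr3.

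The naming rule took the 10 genes with the smallest unadjusted p in each direction on each scale where no more passed, which gave 16 distinct genes higher in C and 16 lower. Of the 16 higher, 8 had all C libraries above all A libraries as deposited, as 2.15% of all genes did, and 3 after quantile normalization, as 0.21% of all genes did, namely Hspb8, Mlc1 and Tex264, a receptor for autophagy of the endoplasmic reticulum. As these genes were picked for their difference, the counts describe them and test nothing. Their differences as deposited ran from 1.30 to 2.26, and none passed on either scale.

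Several of the 16 act in astrocyte metabolism and secretion. Clu, the secreted chaperone clusterin, was at 104 and 70.9 FPKM in olfactory bulb A and at 277 and 120 in C. In the cortex Clu was at 236 and 65.3 in A and at 872 and 848 in C, and in the brainstem at 158 and 81.5 in A and at 317 and 248 in C. The C values were above the A values within each region, though the highest A value, 236, exceeded the lowest C value. The difference in Clu was 1.72 ± 0.41 (SE) as deposited and 1.06 ± 0.24 after quantile normalization (limma adjusted p = 0.112 and 0.291). Dio2, the deiodinase that activates thyroid hormone in glia, differed by 1.36 ± 0.29, and Acsl6, a fatty acid activating enzyme, by 1.60 ± 0.31. Sod3, the extracellular superoxide dismutase, differed by 1.77 ± 0.42 and Ndufa9, a subunit of respiratory complex I, by 1.81 ± 0.40. Vamp8, a vesicle fusion protein, differed by 2.26 ± 0.43, with 1.87 FPKM in the lowest C library. Cbr3 and Dhrs4, carbonyl reducing enzymes, were listed at 0 in 2 and 1 of the A libraries.

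Of the 16 genes that lay lower in C, Npy was the one that passed. Tgfb3, a growth factor of the TGF-beta family, was at 8.94 and 16.3 FPKM in brainstem A and at 4.72 and 4.97 in C, with a difference of -1.12 ± 0.28 (SE, limma adjusted p = 0.112) as deposited and -1.48 ± 0.27 after quantile normalization (limma adjusted p = 0.267). Lpar1, a receptor for lysophosphatidic acid in oligodendrocytes, differed by -1.26 ± 0.22 after quantile normalization (limma adjusted p = 0.267). Mbp and Mobp, components of the myelin sheath, differed by -1.73 ± 0.33 and -1.39 ± 0.29 on the quantile scale, against -0.52 and -0.72 as deposited. Mbp was at 1485 and 906 FPKM in olfactory bulb A and at 575 and 471 in C, but in the cortex at 2143 and 1647 in A and at 2264 and 2423 in C. The cortex values of Mbp thus ran the other way as deposited. Nrxn3, a presynaptic adhesion protein, differed by -1.30 ± 0.28 and Rph3a, a synaptic vesicle protein, by -1.36 ± 0.30 after quantile normalization.

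Astrocyte markers lay higher in C as a list. All 26 had a positive difference as deposited, with a median of 1.28 against 0.41 over all genes, and 23 had an unadjusted p under 0.05, where 22.1% of all genes did. After quantile normalization 25 of 26 were positive, with a median of 0.64 against 0.03, and 20 had an unadjusted p under 0.05, where 6.34% of all genes did. None passed at an adjusted p under 0.05 on either scale. With array quality weights 17 of 26 passed by limma as deposited, against 3.48% of all genes, and 0 passed after quantile normalization. Without the second A libraries of cortex and brainstem the quantile median was 0.49 and 12 had an unadjusted p under 0.05.

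The glutamate transporter Slc1a3 was at 132 and 97.4 FPKM in olfactory bulb A and at 294 and 209 in C. In the cortex Slc1a3 was at 120 and 59.2 in A and at 307 and 347 in C, and in the brainstem at 108 and 50.0 in A and at 124 and 160 in C. As deposited both C libraries exceeded both A libraries in each region, as for 6.57% of all genes, while after quantile normalization they overlapped in at least 1 region. Fgfr3, a growth factor receptor enriched in astrocytes, differed by 1.69 ± 0.39 (SE) as deposited and by 1.12 ± 0.28 after quantile normalization. Sox9, a transcription factor of astrocytes, differed by 1.56 ± 0.41 and 0.98 ± 0.31. Gfap, the intermediate filament of astrocytes, differed by 0.83 ± 0.39 and 0.23 ± 0.27, and S100b, a calcium binding protein, by 0.49 ± 0.33 and -0.19 ± 0.20. The tissue factor gene F3 differed by 0.54 ± 0.34 and 0.01 ± 0.28. These 3 were the markers with an unadjusted p of 0.05 or more as deposited.

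Genes of transmitter uptake lay on the same side. Several of the lists below share members with the astrocyte markers, such as Aqp4, Gja1, Mlc1 and Apoe. Their counts are thus not independent of the counts for the astrocyte markers. Of 14 tested genes for glutamate and GABA uptake and metabolism, 12 had an unadjusted p under 0.05 upward as deposited, with a median of 1.26, where 22.1% of all genes did. After quantile normalization 7 did, with a median of 0.63, where 6.34% of all genes did. Slc6a11, a GABA transporter of astrocytes, was at 268 and 180 FPKM in olfactory bulb A and at 647 and 327 in C, at 52.4 and 12.5 in cortex A and at 149 and 164 in cortex C. In the brainstem Slc6a11 was at 233 and 100 in A and at 327 and 270 in C. Slc25a18, a mitochondrial glutamate carrier, differed by 1.68 ± 0.45 (SE) as deposited and 1.10 ± 0.33 after quantile normalization. On the quantile scale 1 member had an unadjusted p under 0.05 downward.

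Endfoot, gap junction and ion transport genes gave 13 of 17 with an unadjusted p under 0.05 upward as deposited (median 1.21), against 22.1% of all genes, and 10 after quantile normalization (median 0.51), against 6.34%. Aqp4, the water channel of endfeet, was at 15.6 to 57.7 FPKM in A, with a median of 32.3, and at 59.9 to 90.4 in C, with a median of 77.1. As deposited the groups did not overlap, as for 2.15% of all genes. Gja1, the gap junction protein connexin 43, was at 20.9 to 52.4 FPKM in the 6 A libraries and at 55.3 to 138 in the 6 C libraries, also without overlap as deposited. After quantile normalization both genes overlapped between the populations, and Mlc1 was the 1 of 17 that did not, where 0.21% of all genes lay wholly above. On that scale Aqp4 differed by 0.59 ± 0.25 (SE) and Gja1 by 0.60 ± 0.23. The chloride cotransporter gene Slc12a2 had the value closest to 0 after quantile normalization, -0.07 ± 0.26.

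Genes of synapse formation and organisation, not all of them genes of astrocytes, lay mostly on the same side. Of 21 tested, 19 were positive as deposited (median 0.81) and 9 had an unadjusted p under 0.05 upward, against 22.1% of all genes. After quantile normalization 17 were positive (median 0.30), with 5 at an unadjusted p under 0.05 upward and 1 downward, against 6.34% and 4.4% of all genes. Sparcl1, the secreted synaptogenic protein hevin, was at 185 to 609 FPKM in A and at 687 to 1301 in C, and differed by 0.79 ± 0.24 (SE) after quantile normalization. Mertk, a receptor for engulfment, differed by 1.08 ± 0.29 on that scale. The thrombospondin genes Thbs1, Thbs2 and Thbs4 differed by -0.20 ± 0.27, -0.40 ± 0.28 and 0.37 ± 0.26 on that scale, and the member with the downward p was Nrxn3.

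Transcription factors and signalling genes of glia lay on the same side. All 16 tested gliogenic transcription factors had a positive difference as deposited, and 13 had an unadjusted p under 0.05, against 22.1% of all genes. After quantile normalization 14 were positive and 6 had an unadjusted p under 0.05, against 6.34% of all genes. Hopx, a homeodomain protein of glial and stem cells, differed by 1.21 ± 0.33 (SE) after quantile normalization, and Pax6 by 0.71 ± 0.26. Nfia and Nfib, which act early in gliogenesis, differed by 0.13 ± 0.20 and 0.18 ± 0.30 on that scale. Of 15 Notch and BMP genes, 13 had an unadjusted p under 0.05 upward as deposited and 7 upward and 1 downward after quantile normalization. Among them Id3, a target of BMP signalling, differed by 1.08 ± 0.35 and Hey2, a target of Notch, by -0.58 ± 0.26.

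Energy and lysosome genes were part of the same lean, beside 22.1% of all genes with an unadjusted p under 0.05 upward as deposited and 6.34% after quantile normalization. Of 22 genes of glycolysis, glycogen and lactate, 15 had an unadjusted p under 0.05 upward as deposited (median 1.17) and 9 after quantile normalization (median 0.58). Pygb and Pygm, glycogen phosphorylases, differed by 0.88 ± 0.24 (SE) and 0.92 ± 0.26 after quantile normalization. Of 48 nuclear genes of oxidative phosphorylation, 30 had an unadjusted p under 0.05 upward as deposited (median 1.01), and after quantile normalization 14 did so upward and 2 downward (median 0.40). Of 18 lysosome genes, 15 and 8 had an unadjusted p under 0.05 upward on the respective scales, among them Psap, the saposin precursor, at 0.95 ± 0.31 after quantile normalization. Cytosolic ribosomal protein genes lay below the shift of all genes, with a median of 0.32 over 37 as deposited and -0.22 after quantile normalization.

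Surface receptors, matrix genes and lipid genes are read against the same shares of all genes, 22.1% as deposited and 6.34% after quantile normalization. Of 18 astrocyte receptors, 13 had an unadjusted p under 0.05 upward as deposited and 5 after quantile normalization. S1pr1, a receptor for sphingosine 1-phosphate, was at 13.5 to 41.7 FPKM in A and at 38.0 to 104 in C, so that the groups overlapped, and differed by 0.90 ± 0.26 (SE) after quantile normalization. Ntrk2, the BDNF receptor, was at 58.7 to 136 FPKM in A and at 183 to 298 in C, with no overlap as deposited, as for 2.15% of all genes. After quantile normalization Ntrk2 overlapped between the populations and differed by 0.61 ± 0.20. Of 19 matrix and adhesion genes, 13 and 8 had an unadjusted p under 0.05 upward on the respective scales. The brain proteoglycans Ncan and Bcan differed by 0.86 ± 0.27 and 0.80 ± 0.27 after quantile normalization, and Lama2, a laminin chain of basement membranes, by 1.00 ± 0.29. Tnc and Cd44, which are linked to reactive astrocytes, differed by 0.16 ± 0.31 and 0.13 ± 0.25. Of 15 genes of lipid transport and fatty acid use 11 and 4 had an unadjusted p under 0.05 upward. Apoe, the main lipoprotein of astrocytes, differed by 0.91 ± 0.34 after quantile normalization. Of 17 cholesterol synthesis genes 7 had an unadjusted p under 0.05 upward as deposited (median 0.72). After quantile normalization 1 did (median 0.15), a share near that of all genes and so no result about the list.

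Several of these counts were smaller by over 1.5 times without the second A libraries of cortex and brainstem. As deposited, oxidative phosphorylation went from 30 to 17 genes, lipid genes from 11 to 6, and cholesterol synthesis from 7 to 3. After quantile normalization oxidative phosphorylation went from 14 to 7, glycolysis, glycogen and lactate from 9 to 3, lysosome genes from 8 to 3, endfoot genes from 10 to 5, and Notch and BMP genes from 7 to 4. Over all genes the count of higher genes went from 2626 to 1383 as deposited and from 753 to 451 after quantile normalization.

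By their medians, lists of cell stress and reactivity lay near the shift of all genes, 0.41 as deposited and 0.03 after quantile normalization. Of 23 immediate early and dissociation response genes, 0 had an unadjusted p under 0.05 upward or downward as deposited (median 0.47), and 1 did downward after quantile normalization (median -0.07). Of 13 tested astrocyte reactivity genes 1 had an unadjusted p under 0.05 upward as deposited (median 0.26). After quantile normalization 1 did downward (median 0.07). Over the 11880 genes tested these shares were 22.1% upward and 0.446% downward as deposited, and 6.34% and 4.4% after quantile normalization. As deposited the upward share of both lists was thus below 22.1%, a difference that was not tested.

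**Figure D5:**
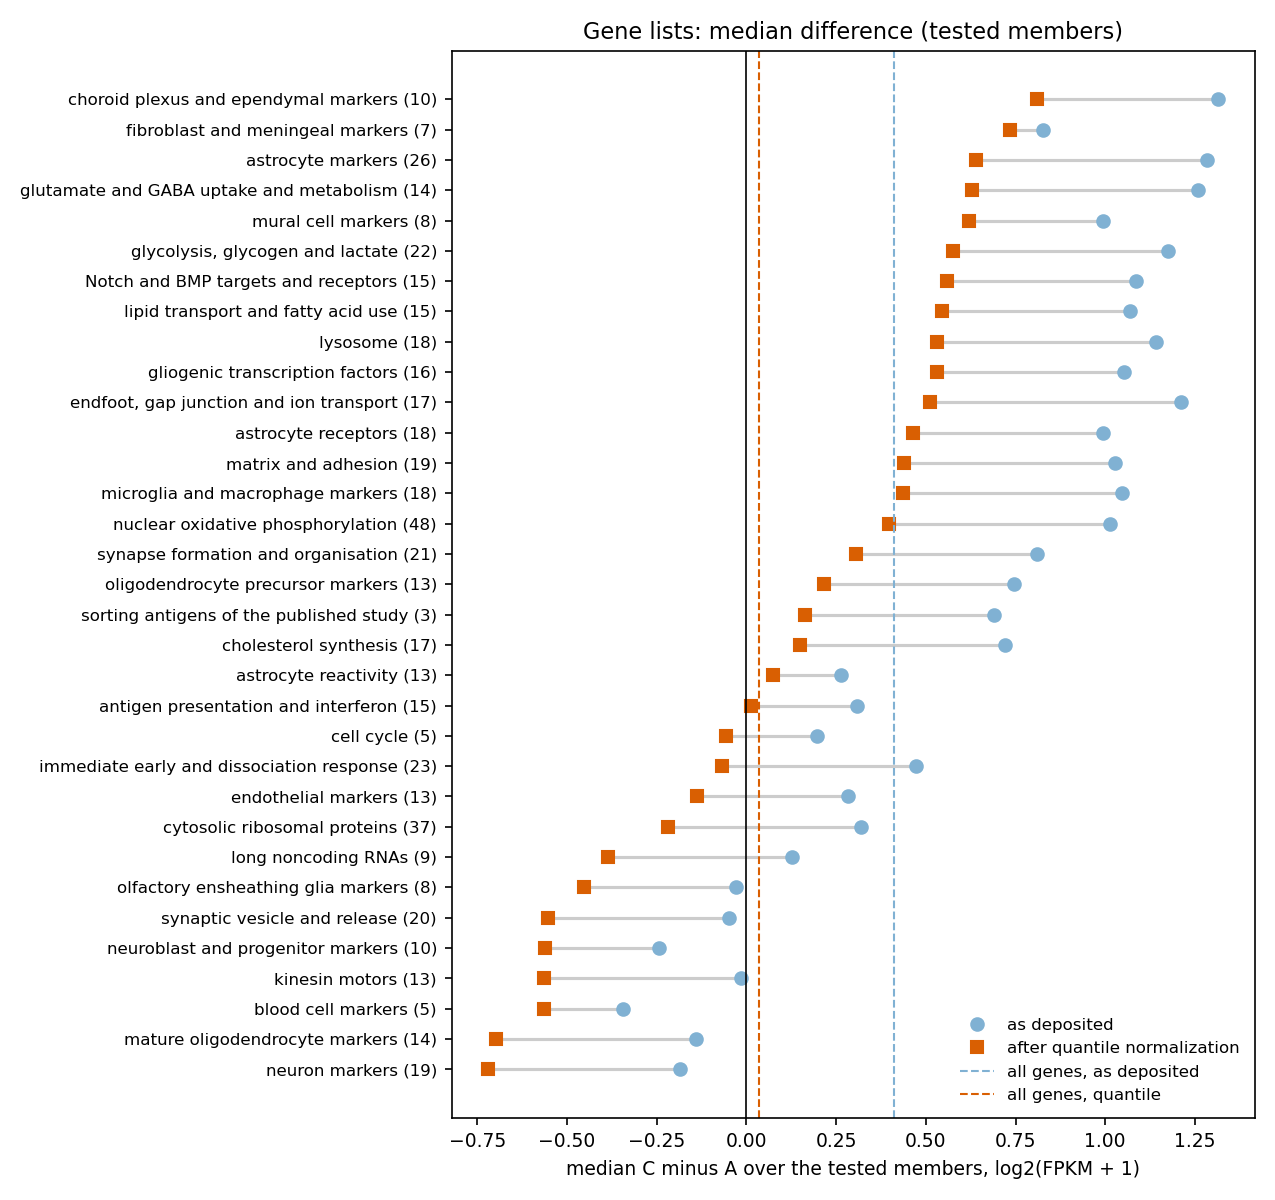
Median difference between C and A over the tested members of each of 33 gene lists (x axis, log2(FPKM + 1)), as deposited (circles) and after quantile normalization (squares), with the number of tested members in brackets; dashed lines mark the medians over all genes, 0.41 and 0.03. Astrocyte markers lie at 1.28 and 0.64, neuron markers at -0.18 and -0.72.

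Markers of other cells differed in both directions. Of 19 tested neuron markers, 0 had an unadjusted p under 0.05 in either direction as deposited (median -0.18). After quantile normalization all 19 were negative and 12 had an unadjusted p under 0.05 downward (median -0.72), where 4.4% of all genes did. Rbfox3, a splicing factor of mature neurons, was at 11.3 and 10.1 FPKM in olfactory bulb A and at 3.98 and 3.80 in C. In the cortex Rbfox3 was at 8.83 and 6.38 in A and at 2.33 and 2.88 in C, and in the brainstem at 1.81 and 1.09 in A and at 1.79 and 3.34 in C, where the groups overlapped. The synaptic vesicle and kinesin lists lay on the same side of 0 on that scale. Of 20 synaptic vesicle genes 10 had an unadjusted p under 0.05 downward, and of 13 kinesin genes 6 did. Of 14 mature oligodendrocyte markers, 6 had an unadjusted p under 0.05 downward after quantile normalization (median -0.70), and 1 did as deposited (median -0.14). The quantile scaling lowered the medians of the neuron and mature oligodendrocyte markers by over 0.5, so how far these 2 lists lay below 0 depended on the scale. Both lists lay below the median over all genes on each scale, which was 0.41 as deposited and 0.03 after quantile normalization.

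Markers of several other cell types also lay higher in C, beside 22.1% of all genes with an unadjusted p under 0.05 upward as deposited and 6.34% after quantile normalization. All 18 microglia and macrophage markers had a positive difference as deposited (median 1.05), and 12 had an unadjusted p under 0.05. After quantile normalization 3 did (median 0.44). Without the second A libraries of cortex and brainstem these counts were 6 and 1. Their summed level ran from 122 to 369 FPKM in A and from 178 to 902 in C. Trem2, a receptor of microglia, was listed at 0 in 2 of 6 A libraries and was at 0.807 to 11.8 FPKM in C. Choroid plexus and ependymal markers summed to between 33.0 and 3340 FPKM in A and between 75.4 and 25400 in C. Ttr, the thyroid hormone carrier of the choroid plexus, was at 4.70 to 3025 FPKM in A and 29.8 to 23601 in C, with the highest value in the first brainstem C library. All 10 tested markers of this list were positive on both scales, with a median of 1.31 as deposited and 0.81 after quantile normalization, beside 1.28 and 0.64 for the astrocyte markers. Of these 10, 8 had an unadjusted p under 0.05 upward as deposited and 3 after quantile normalization. Without the second A libraries of cortex and brainstem 1 did on each scale, and without the first olfactory bulb C library 6 did after quantile normalization. Foxj1, the factor of ciliated ependymal cells, was listed at 0 in all 6 A libraries and in 2 of 6 C libraries.

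Mural cells, which wrap small vessels, and fibroblasts of the meninges lay on the same side. Their counts stand beside 22.1% of all genes with an unadjusted p under 0.05 upward as deposited and 6.34% after quantile normalization. All 8 tested mural cell markers were positive on both scales, with a median of 0.99 as deposited and 0.62 after quantile normalization, and 6 and 1 of them had an unadjusted p under 0.05 upward. Mural markers summed to between 3.25 and 26.6 FPKM in A and between 30.3 and 60.0 in C, so that the summed levels did not overlap. All 7 tested fibroblast and meningeal markers were positive on both scales, with medians of 0.83 and 0.74, and 3 and 2 had an unadjusted p under 0.05 upward. Their sum ran from 9.85 to 60.1 FPKM in A and from 10.5 to 211 in C. Of 13 oligodendrocyte precursor markers 12 were positive as deposited (median 0.75) and 10 after quantile normalization (median 0.22), and 6 and 1 had an unadjusted p under 0.05 upward. A quantile count of 1 in lists this short, as for mural cells and oligodendrocyte precursors, is no result about the list. Without the second A libraries of cortex and brainstem the counts as deposited were 2 for mural cells, 2 for fibroblasts and 4 for oligodendrocyte precursors. Without the first olfactory bulb C library the fibroblast counts were 5 as deposited and 4 after quantile normalization. The part of all these cells in the astrocyte gene differences was not tested.

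The surface antigens Itgav, Cd63 and Tfrc were used for sorting in published work on such astrocyte populations, and the labels do not say which of them A and C carry. Itgav, an integrin subunit, was at 3.90 to 9.98 FPKM in A and at 8.31 to 17.3 in C. Cd63, a tetraspanin of late endosomes, was at 1.38 to 12.7 FPKM in A and at 6.02 to 21.6 in C. Tfrc, the transferrin receptor, was at 1.00 to 6.22 FPKM in A and at 4.09 to 9.19 in C. All 3 overlapped between the populations. As deposited their differences ran from 0.57 to 1.16, against a median of 0.41 over all genes. Of the 3, 1 had an unadjusted p under 0.05 upward, where 22.1% of all genes did, and none passed. After quantile normalization the differences were 0.03 ± 0.23 (SE), 0.58 ± 0.31 and 0.16 ± 0.30.

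Whether the difference between C and A depended on region was tested with an interaction. As deposited 0 of 11880 genes (0%) passed by limma, with 892 at an unadjusted p under 0.05. After quantile normalization 0 passed and 731 were at an unadjusted p under 0.05. Within single regions, 0 genes passed in the olfactory bulb (0%), 1 in the cortex (0.00842%) and 3 in the brainstem (1 higher, 0.00842%, and 2 lower, 0.0168%) as deposited. Each brainstem call rests on 2 libraries of 1 kind with values and almost all others listed at 0. Msto1 was at 4.61 and 6.57 FPKM in brainstem C and listed at 0 elsewhere, while Taf1d was at 3.83 and 6.00 in brainstem A and listed at 0 elsewhere. Fam57a was at 5.86 and 8.27 FPKM in brainstem A, at 1.34 in 1 olfactory bulb C library and listed at 0 in the other 9. A value listed at 0 need not be an absence of transcript. These 3 were named because of their calls.

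By region, the astrocyte markers had a median difference after quantile normalization of 0.82 in the olfactory bulb, 0.73 in the cortex and 0.30 in the brainstem, against 0.02, 0.07 and 0.01 over all genes. As deposited the medians were 1.03, 1.97 and 0.79, against 0.05, 0.79 and 0.40 over all genes. The olfactory bulb value stands beside libraries with similar numbers of genes at 1 FPKM or more, 9215 and 9447 in A and 9315 and 9179 in C. Relative depth there was 2.26 and 1.88 in A and 2.36 and 2.28 in C, so both C libraries were higher. The share of fragments on nuclear transcripts was 36.2% and 30.4% in A and 34.9% and 26.9% in C. The part of library properties in the olfactory bulb value was not tested. The cortex value as deposited includes the second cortex A library, in which the mean of the list was 4.32, against 5.85 in the other cortex A library and 7.11 and 7.25 in the C libraries. Without that library the median over the 3 regions was 1.03 as deposited and 0.61 after quantile normalization, against 0.28 and 0.01 over all genes.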

How the data were processed

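RNA from sorted mouse brain cells was measured by sequencing, and 12 libraries were used. Per the labels, the NuGEN Ovation V2 kit amplified the RNA from random and oligo d(T) primers. It does not mark strand, so a gene and its antisense partner share reads. Per the submitters' processing notes, bcl2fastq 1.8.3, TopHat and Cufflinks were used with mm10. No version of TopHat or Cufflinks is given. The deposited tables give FPKM for 63241 transcripts, which the authors scaled by mapped fragments, and a coverage signal deposited beside it. FPKM is not a count and keeps no fragment numbers, so no count model was used. Exact 0 values need not be an absence of transcript. Of the nuclear transcripts, 1 in the first olfactory bulb C library was marked as having no valid estimate. In the other libraries of A and C the number so marked was 0. The 10 mitochondrial transcripts were left out, since 3 to 7 of them had no estimate in each of the 12 libraries.

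Transcripts were assigned by position to GENCODE vM21 genes (GRCm38), by the same span or an overlap score of at least 0.5 with a margin of 0.1, or by lying inside 1 gene with a length of at least 200 bases. This assigned 53746 transcripts (85.0%) to 25556 genes, and FPKM was summed per gene. The 11880 genes that reached 1 FPKM in 2 libraries of the 12 were tested on log2(FPKM + 1) with limma 3.58.1 in R 4.3.3, with region as a block (8 residual degrees of freedom), a variance trend and Benjamini-Hochberg adjustment. The threshold was an adjusted p of 0.05, two-sided. Differences on this scale understate changes of low genes. Quantile normalization was the second scale, and rescaling to a sum of 1000000 the third. Regions were tested with a mean per group (6 residual degrees of freedom). The fits were run on simulated data with noise below the residual spread of these data. That run checks the code and not how many differences could be found here. Library properties were tested by exact permutation within regions.

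Named genes were the 10 with the smallest unadjusted p in each direction on each scale, where fewer passed, among protein-coding genes with a mean of at least 5 FPKM in the higher population and the same direction on both scales and, on the scale of the choice, in all 3 regions. List members were described by list, and the gene called within the cortex is not reported here. The members and the lists were chosen with earlier results of these data known. Promoters were found in the RefSeq table for 24 of 32 named genes. Alternatives were another pseudocount, filter, transcript choice, variance model, set of libraries, minimum difference, and leaving out each library in turn.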

Additional observations from a re-analysis of the deposited data

Results flagged for a closer look

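In 14 cases 1 library of a population lay apart from the other 5, with a gap to its nearest neighbour that exceeded Dixon's 95% critical share of the whole range. Chance flags about 1 in 20 groups checked, and 138 groups were checked. Values are log2(FPKM + 1), for a list its mean over members.

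The second cortex A library was the lowest of A in 7 of the cases. It had 0.376 for Ndufa9, 0.561 for Sod3, 1.55 for oligodendrocyte precursor markers, 3.41 for glutamate and GABA genes, 1.18 for cholesterol synthesis, 1.44 for glycolysis, glycogen and lactate, and 0.289 for astrocyte reactivity genes. This library also had the fewest genes at 1 FPKM or more, 4356. The second brainstem A library had 0.912 for Phip.

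Among the C libraries, the second olfactory bulb library stood apart in 4 cases. It had 1.52 for Vamp8, 3.82 for Tmsb10, 2.25 for cytosolic ribosomal protein genes and 3.90 for lysosome genes. The first brainstem C library had 2.38 for mural cell markers, with the next at 1.53, and the second had 3.09 for Tenm2.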

How the results depend on the processing

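No paired analysis was possible because the labels give the libraries of a group no replicate numbers. As deposited 0 genes passed, against 421 with array quality weights (414 higher in C, 7 lower), 1 after quantile normalization, 1 after rescaling to the median protein-coding sum (a scale chosen after seeing the data) and 0 to 2 when 1 library was left out. After quantile normalization the 1 call became 0 in a fit over all 36 libraries, without the region block and with a minimum log2 difference of 1, and it stayed at 1 when any 1 library was left out. Within the olfactory bulb the 0 calls became 4 with no filter on low values and 0 to 2 with 1 library left out. Within the cortex the 1 call became 0 with a pseudocount of 0.1, with 1 FPKM required in 6 libraries and with array quality weights, and 4 over all 36 libraries. With 1 library left out it ran from 0 to 2606, the latter without the first cortex A library, where the lone second one is assumed to vary like the other groups. Within the brainstem the 3 calls became 0 with a pseudocount of 0.1, with 1 FPKM required in 6 libraries, with array quality weights, with no variance trend and after rescaling to 1000000. They became 1 with the highest transcript per gene, 8 with no filter, and 0 to 2 with 1 library left out. The 0 interaction calls became 6 with no filter and 0 to 9 with 1 library left out, 9 without the first cortex A library. The cause of these changes was not tested.

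The excess of genes in C was 1170 at a minimum of 5 FPKM (exact permutation test, two-sided p = 0.0278) and 875.5 to 1894 with 1 library left out, the lowest without the second cortex A library. The excess in summed nuclear FPKM ran from 32950 to 52040, in the nuclear share from 7.966 to 13.32 percentage points and in relative depth from 0.3331 to 0.4791. Of 1536 values of the named genes under alternatives, 0 reversed, 21 moved past the threshold and 3 lost it, all of Npy. These genes were chosen for the same direction on both scales and, on the scale of the choice, in all 3 regions. The count of 0 reversals was thus largely set by the choice and tests nothing. FPKM tables hold no fragment counts, so the depth behind a low value is unknown, and a value listed at 0 need not be an absence of transcript.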
